A study of Homo sapiens with 2 samples.

Results

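The 10 genes described here are called reference genes. Some of them, such as ACTB and GAPDH, are transcripts that laboratories commonly take as steady when they compare samples. Whether each of the others, ODC1 among them, is in such use was not examined. The 10 are ACTB, ACTG1, ARHGDIA, COX4I1, DYNLL1, EIF3D, GAPDH, H3-3A, ODC1 and PGK1. Each has a probe printed on 10 spots of the array instead of 1, and the rule for choosing them did not use how they changed. Printing on 10 spots does not by itself pick these 10 genes, which were chosen with earlier results of these data known. They are 10 of the 20 gene probes repeated in this way among the 58921 probes measured. Expression was measured in SK-NEP-1 cells, a human cell line that the submitters describe as a kidney Wilms tumor line, with no check of that identity here. One culture received 100 nM LBH589 for 24 h and the other received the same volume of its solvent, DMSO, and no dose of LBH589 (0 nM). Each RNA was hybridised to 1 Arraystar Human LncRNA array in 1 colour (Cy3). With 1 array per condition there was no replicate, so no test was possible and no p-value is given, and culture, RNA preparation and labelling cannot be told apart from treatment. Every error below is a spread over spots of these arrays and does not cover cultures.

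LBH589 (panobinostat) blocks histone deacetylases, which take acetyl groups off histones and off many other proteins. Inhibitors of this class raise the transcripts of some genes and lower those of others, and a reference gene is useful under such a drug only if it is among neither. The 10 genes serve different parts of the cell. ACTB, ACTG1, ARHGDIA and DYNLL1 belong to the cytoskeleton and its regulation, GAPDH, PGK1, COX4I1 and ODC1 to metabolism, EIF3D to the initiation of translation, and H3-3A to chromatin.

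The reference genes did not keep one common ratio between LBH589-treated and DMSO-treated cells. ODC1 stood highest and PGK1 lowest, and the gap between their differences was 1.66 on the log2 scale, or 3.16-fold, a quantity that no constant scaling of an array can alter. Between them lay a pair, ARHGDIA and H3-3A, and then 6 genes, GAPDH, ACTG1, ACTB, COX4I1, EIF3D and DYNLL1, whose differences spanned 0.17. None of the 10 reached a 2-fold difference after scaling, where, of 41574 probes detected above background on 1 or both arrays, 12.3% lay past 2-fold upward in LBH589-treated cells, 10.2% lay past it downward and 22.5% in either direction. Without scaling, 3 of the 10 (PGK1, ARHGDIA and H3-3A) lay more than 2-fold lower. In that setting 16249 of the 41574 probes lay past 2-fold downward.

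The sequence upstream of the start site was read for the genes at both ends of the order, ODC1 and PGK1, and for ACTG1 as 1 of the genes between them. The sequences are those of RefSeq on GRCh38.p14, 250 bases ending just before the annotated start, on the gene's strand, from the start farthest upstream where a gene has several. They are chrX:78103998-78104247 (plus strand) for PGK1, chr2:10448328-10448577 (minus strand) for ODC1 and chr17:81512800-81513049 (minus strand) for ACTG1. Capitals mark the GC box GGGCGG or its complement CCGCCC, the kind of site that Sp1-family factors recognise.
PGK1: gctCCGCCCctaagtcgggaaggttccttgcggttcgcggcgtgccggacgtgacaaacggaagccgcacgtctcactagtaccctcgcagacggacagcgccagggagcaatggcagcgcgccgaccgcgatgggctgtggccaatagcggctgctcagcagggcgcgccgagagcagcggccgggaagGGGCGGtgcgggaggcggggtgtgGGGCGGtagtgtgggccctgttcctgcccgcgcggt
ODC1: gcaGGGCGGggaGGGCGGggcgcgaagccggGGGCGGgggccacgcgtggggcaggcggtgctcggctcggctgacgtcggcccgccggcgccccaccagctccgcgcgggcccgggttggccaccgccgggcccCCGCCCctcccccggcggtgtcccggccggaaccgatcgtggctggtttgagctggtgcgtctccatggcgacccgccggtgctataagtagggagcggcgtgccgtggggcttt
ACTG1: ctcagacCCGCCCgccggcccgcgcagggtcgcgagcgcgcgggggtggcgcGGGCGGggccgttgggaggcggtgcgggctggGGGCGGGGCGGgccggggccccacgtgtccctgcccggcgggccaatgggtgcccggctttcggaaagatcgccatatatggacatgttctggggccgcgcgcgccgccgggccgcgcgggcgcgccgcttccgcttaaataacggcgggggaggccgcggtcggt

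PGK1 held 3 GC boxes, ODC1 4 and ACTG1 4, counted on both strands with overlaps allowed. A window was listed for 9 of the 10 genes, ACTB being the exception, and all 9 held at least 1 GC box, where 42.6% of all 35116 windows did. The CCAAT box (CCAAT) was in 4 of the 9 (PGK1, ACTG1, EIF3D and H3-3A) and in 32.0% of all windows. The E-box CACGTG was in the windows of ACTG1 and GAPDH and in 6.34% of all, and the shorter ACGTG that it contains was in 5 of the 9 (PGK1, ACTG1, GAPDH, DYNLL1 and H3-3A) and in 18.5% of all. None of the 9 windows held TATAAA, which 3763 of all windows did. Windows were taken by gene, and whether each start is that of the transcript its probe names was not checked. The CArG box, the site of serum response factor, searched on both strands, was found in ACTG1 alone among the 9 and in 1.16% of all windows. GC content was 71.2% for PGK1 and 78.8% for both ODC1 and ACTG1, beside a median of 58.0% over all windows. These matches are letters in a window and no binding was measured.

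Signals here are Agilent processed signals, the background-subtracted brightness of a spot in arbitrary units. Before scaling, the LBH589 array was the dimmer one, with a 75th percentile over all probes of 108.4 against 188.6 on the DMSO array. A scaled value is the log2 signal minus the log2 of that percentile, and a difference is the scaled value in LBH589-treated cells minus that in DMSO-treated control cells. Spots at the same place on both arrays were also paired, and the SD over these positions is given with each difference. All 100 spots of the 10 genes were well above background on both arrays and none was saturated, while 90 of 600 spots of the 60 negative probes on the DMSO array and 74 of 600 on the LBH589 array carried the same flag. The negative probes had a median signal of 4.25 and 3.28 on those arrays. Ranges and medians of signals below cover all 10 spots of a gene. Of the 100 spots, 8 were marked as outliers by the scanner software on 1 or both arrays. These were left out of means, errors, differences and statements on whether scaled spots overlapped, unless said otherwise.

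**Figure D1:**
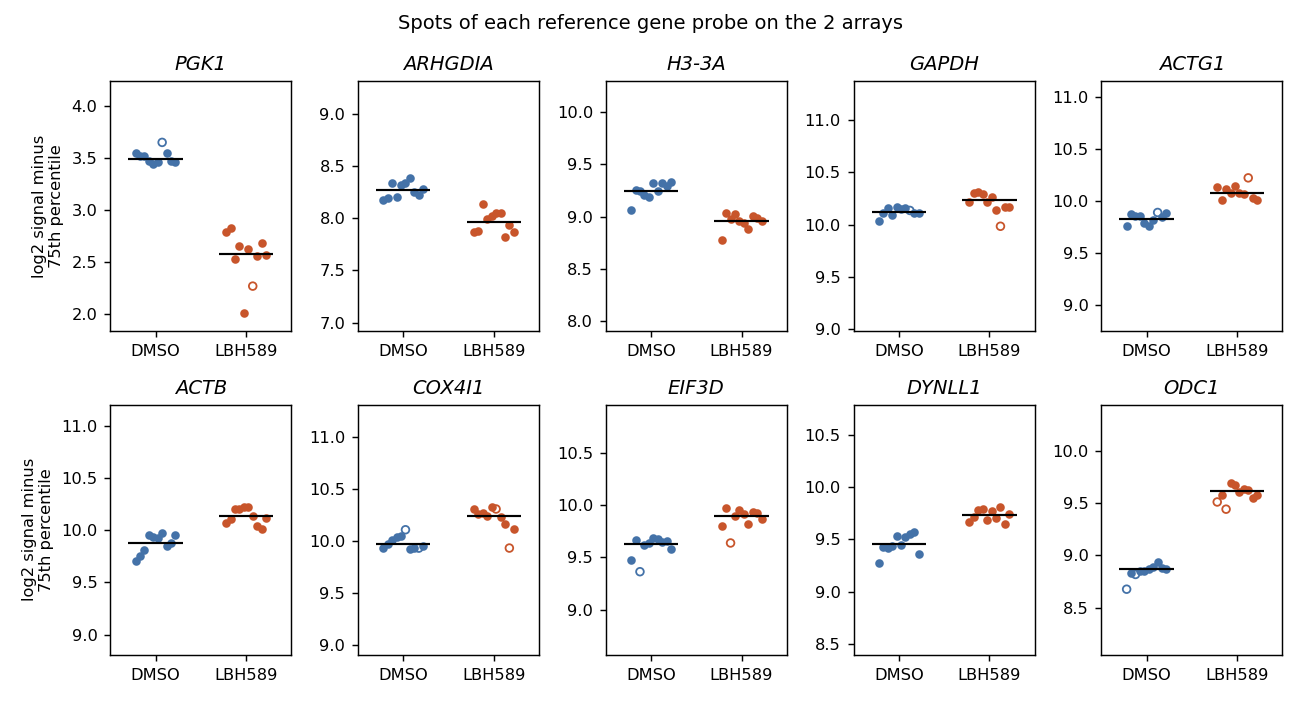
Scaled log2 signals (vertical axis, log2 signal minus the 75th percentile of the array) of the 10 spots of each reference gene on the DMSO and LBH589 arrays, in panels of equal height ordered by the difference. Points are spots, open circles are spots left out on both arrays and bars are means over the spots used, and the LBH589 spots of PGK1 lie below all of its DMSO spots while those of ODC1 lie above.

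PGK1 encodes phosphoglycerate kinase, a glycolytic enzyme that makes ATP, and was the lowest of the 10. Its spots read from 2046 to 2368 (median 2128) on the DMSO array and from 436.6 to 769.4 (median 656.7) on the LBH589 array. These unscaled ranges did not overlap, as for every reference gene but ODC1. The scaled spots of PGK1 did not overlap either. The scaled difference was -0.91 ± 0.22 (SD over 9 positions), which is 1.88-fold lower in LBH589-treated cells, and it lay between -1.43 and -0.69 at single positions. Its spots agreed closely on the DMSO array (SD 0.040) and poorly on the LBH589 array (SD 0.24), where 2 spots, at 436.6 and 523.4, lay under the other 8 at 627.0 to 769.4. The spot at 523.4 was already left out, and without both the difference was -0.85. PGK1 was also by far the dimmest of the 10, with 7.17% of all probes brighter, whereas no more than 0.42% were brighter than any of the other 9.

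GAPDH encodes the enzyme that acts just before phosphoglycerate kinase in glycolysis. Its spots read from 198131 to 216810 (median 210628) on the DMSO array and from 109772 to 138056 (median 128919) on the LBH589 array. After scaling, the spots used overlapped between the arrays, and GAPDH was the only one of the 10 for which they did. With the spots marked as outliers kept, those of COX4I1 and EIF3D overlapped as well. The scaled difference was 0.11 ± 0.079 (SD over 9 positions), with 8 of the 9 positions above 0. These neighbouring steps of one pathway therefore differed from each other by 1.02 in their log2 differences.

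COX4I1 encodes a nuclear-encoded subunit of cytochrome c oxidase, the last complex of the mitochondrial respiratory chain. Its signals ran from 183403 to 208514 (median 188639) in DMSO-treated control cells and from 106123 to 139476 (median 132192) in LBH589-treated cells. The scaled difference was 0.26 ± 0.063 (SD over 8 positions), and the scaled spots at those 8 positions did not overlap. The LBH589 spot at 106123, marked as an outlier and left out, lay within the scaled DMSO range.

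ODC1 encodes ornithine decarboxylase, which carries out the first committed step of polyamine synthesis. Its spots read from 77144 to 92151 (median 87597) on the DMSO array and from 75496 to 90055 (median 83904) on the LBH589 array. The unscaled ranges overlapped almost entirely, and the unscaled difference was -0.05, the smallest shift of the 10. After scaling the ODC1 difference was 0.75 ± 0.063 (SD over 8 positions), or 1.68-fold, with values from 0.67 to 0.85 at single positions, all above those of every other reference gene.

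ACTB and ACTG1 encode the beta and gamma cytoplasmic actins, proteins that are nearly identical. ACTB read from 157138 to 190010 (median 180105) on the DMSO array and from 111997 to 129852 (median 121405) on the LBH589 array, a scaled difference of 0.26 ± 0.094 (SD over 10 positions). ACTG1 read from 163364 to 178828 (median 174007) and from 111714 to 129397 (median 116786), a scaled difference of 0.24 ± 0.089 (SD over 9 positions). The difference of ACTB exceeded that of ACTG1 by 0.015 ± 0.044 (SE over spots), so the actins could not be separated. Both have related genes and pseudogenes, and whether the probes tell them apart was not examined, because the probe sequences were not used here.

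DYNLL1 encodes the LC8 light chain of the motor dynein. It read from 117009 to 143079 (median 131265) on the DMSO array and from 87165 to 97361 (median 91909) on the LBH589 array, a scaled difference of 0.28 ± 0.11 (SD over 10 positions). EIF3D, a subunit of translation initiation factor eIF3, read from 124226 to 155896 (median 150940) and from 86438 to 109326 (median 104262), a scaled difference of 0.27 ± 0.057 (SD over 9 positions). DYNLL1 and EIF3D thus differed from each other by 0.0061 ± 0.045 (SE over spots), and ACTG1, ACTB, COX4I1, EIF3D and DYNLL1 shared one difference within their spot error.

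ARHGDIA read from 54620 to 63097 (median 58006) on the DMSO array and from 24504 to 30612 (median 27087) on the LBH589 array, a scaled difference of -0.31 ± 0.074 (SD over 10 positions). H3-3A encodes histone H3.3, the H3 variant that is deposited outside DNA replication. It read from 100717 to 121751 (median 114579) and from 47417 to 56796 (median 54309), a scaled difference of -0.29 ± 0.067 (SD over 10 positions). In neither gene did the scaled spots of the arrays overlap, and the gap between the genes was 0.013 ± 0.054 (SE over spots).

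In the order of the 10 differences, 4 of the 9 steps between neighbours exceeded 2 SE over spots. These were the steps from PGK1 to ARHGDIA (0.61), from H3-3A to GAPDH (0.40), from GAPDH to ACTG1 (0.13) and from DYNLL1 to ODC1 (0.47). The other 5 steps were between 0.0031 and 0.015. All of these steps are for scaling by a constant and change under other scalings. With quantile normalization PGK1 lay at -0.82, ARHGDIA at -0.60, H3-3A at -0.56, GAPDH at -0.063, ACTG1 at -0.029, DYNLL1 at 0.064 and ODC1 at 0.51. Of the 45 possible pairs of reference genes, 9 lay at least 2-fold apart, and each of these held PGK1 or ODC1. The pair at both ends counted among the 7 with PGK1 and the 3 with ODC1.

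**Figure D2:**
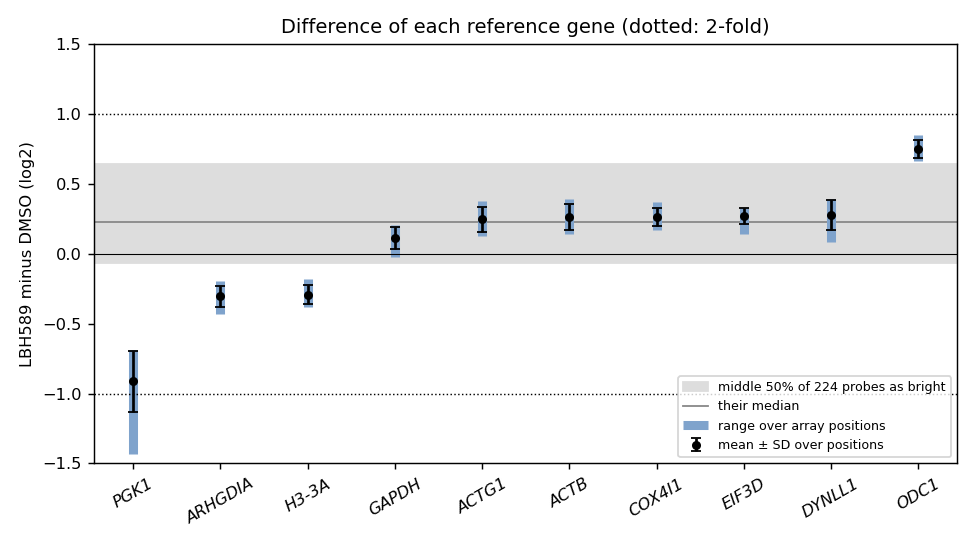
Difference between LBH589-treated and DMSO-treated cells (vertical axis, log2, each array scaled to its 75th percentile) for the 10 reference genes. Black points are means, whiskers the SD over array positions and blue bars the range over positions, and the grey band holds the middle 50% of the 224 other probes in the brightness range of the 9 genes without PGK1, with their median of 0.22 as a line. ARHGDIA and H3-3A lie under the band and ODC1 above it. PGK1 also lies under it but is far dimmer than the probes of the band. In the brightness range of all 10 genes, the middle 50% of 4204 other probes ran from -0.75 to 0.58.

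Over the spots used, the scaled spots of the arrays did not overlap for 9 of the 10 genes. The same was so for 4 of the 8 other repeated probes described here (50%). With the spots marked as outliers kept, COX4I1, EIF3D and, among the other probes, RACK1 overlapped too. The spread between spots was alike on both arrays for the 9 genes without PGK1, with a pooled SD of 0.069 for DMSO and 0.070 for LBH589. Spots at the same position deviated together to some extent (Pearson's r = 0.35 over 83 spots that share arrays and genes). In 9 of the 10 genes the mean difference between LBH589 and DMSO over the lower rows of the array was below that over the upper rows. Each mean rested on few spots (1 in the upper rows for ACTG1, 2 in the lower rows for GAPDH). The lower rows minus the upper rows gave -0.086 on average over the 10 and -0.18 for PGK1, and no gene changed sign between them.

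The other 8 repeated probes described here spread more widely, from -1.26 to 1.60 with an SD of 0.85 against 0.46 for the 10 reference genes. The sets were not matched for brightness. GRM4 and RPL10 were dimmer than any of the 10, with 36.6% and 55.8% of all probes brighter. The ribosomal protein genes RPS18 and RPLP1 lay at 0.013 and 0.019, RACK1, a ribosome-bound scaffold protein, at 0.16 and PRMT1, an arginine methyltransferase, at 0.19. PFN1, the actin-binding protein profilin, lay at -0.84. The probes past 2-fold were MTX1, a mitochondrial import protein, at -1.26 and GRM4, a glutamate receptor, at 1.60. GRM4 had signals of 45.8 to 69.1 on the DMSO array and 80.6 to 107.5 on the LBH589 array. RPL10 lay at -0.39 with a spot SD of 0.36, and only 6 of its 10 spots were well above background on the LBH589 array.

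Differences varied with brightness, but not in one direction. Among the 224 other probes as bright as the 9 genes without PGK1, the median difference was 0.22 and 24 were at least 2-fold changed. Over all 34619 probes that both arrays detected above background, the median was -0.035 and 22.2% were at least 2-fold changed. In the wider brightness range of all 10 genes, which PGK1 extends downward, 4204 other probes had a median of -0.087 and 31.2% were at least 2-fold changed. The median of the 10 reference genes was 0.25, and that of the 9 without PGK1 was 0.26. After a curve of difference fitted on brightness was subtracted, ACTG1 lay at -0.021, ACTB at -0.010, COX4I1 at -0.015, EIF3D at 0.021 and DYNLL1 at 0.041. Whether brightness was the cause of the differences of these genes was not tested.

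**Figure D3:**
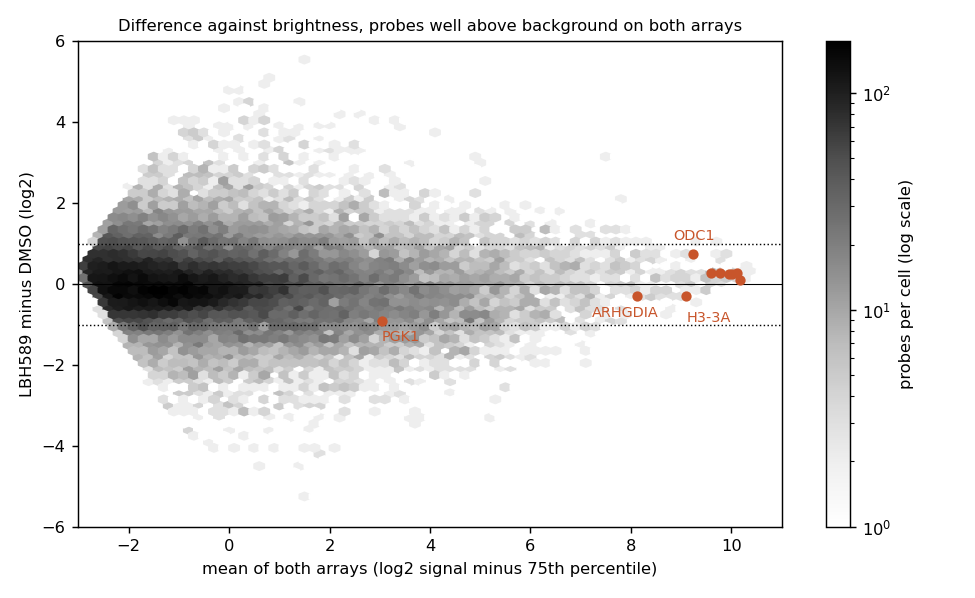
Difference between LBH589-treated and DMSO-treated cells (vertical axis, log2) against the mean of both arrays (horizontal axis, log2 signal minus the 75th percentile) for the 34619 probes that both arrays detected above background. Grey cells count probes on a log scale, orange points are the 10 reference genes, dotted lines mark 2-fold and 25 probes with differences beyond 6 and 1 very dim probe are not drawn. PGK1 lies near the middle of the horizontal axis, although only 7.17% of all probes were brighter, and the other 9 genes lie at its bright end.

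The sign of a difference held for 5 of the 10 genes over the 6 scalings tried between the arrays. Without scaling all 10 differences were below 0, from -1.71 for PGK1 to -0.05 for ODC1. With the 6 scalings, PGK1 stayed between -0.91 and -0.74, ARHGDIA between -0.62 and -0.23 and H3-3A between -0.56 and -0.21, while ODC1 stayed between 0.51 and 0.83 and DYNLL1 between 0.041 and 0.36. The other 5 genes had no fixed sign. GAPDH ran from -0.23 to 0.19, ACTB from -0.06 to 0.34, ACTG1 from -0.03 to 0.32, COX4I1 from -0.02 to 0.34 and EIF3D from -0.04 to 0.35. Quantile normalization, which gives both arrays the same distribution, brought the median of the 10 to -0.046, and a curve fitted on brightness brought it to -0.018. PGK1 was the lowest and ODC1 the highest of the 10 under every scaling shown here. Subtracting a constant from each array cannot change that order. It could have changed only under quantile normalization, with or without the normexp step, and under the curve fitted on brightness.

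**Figure D4:**
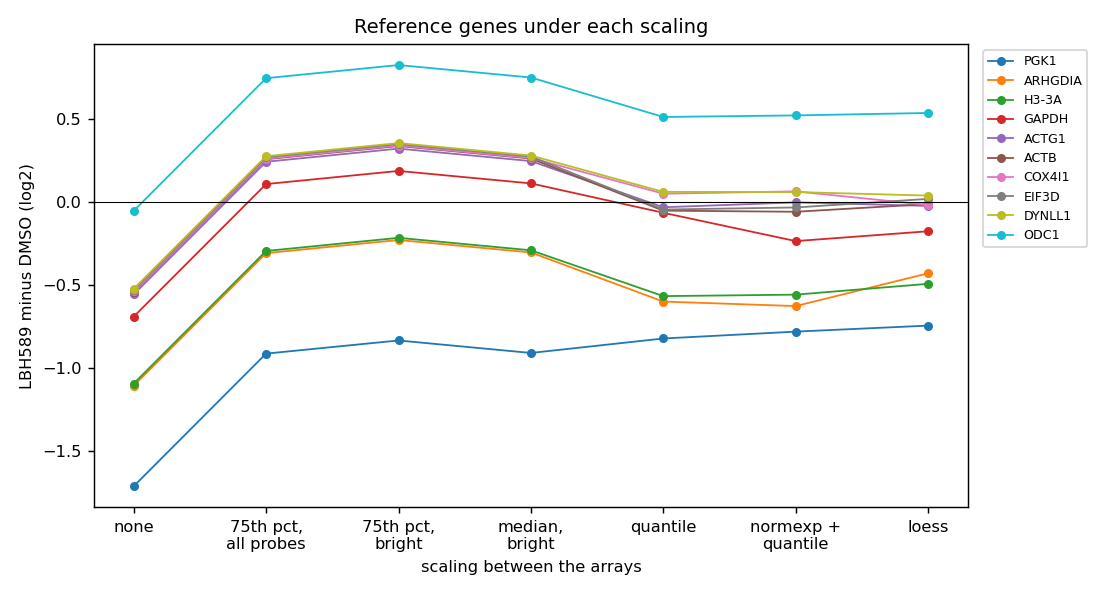
Difference between LBH589-treated and DMSO-treated cells (vertical axis, log2) of the 10 reference genes under no scaling and under 6 scalings between the arrays (horizontal axis). Each line is 1 gene, and ODC1 stays on top and PGK1 at the bottom while the median of the 10 moves from -0.55 without scaling to 0.33 at most. Settings that subtract a constant from each array cannot change the order.

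The counts over the rest of the array depended on the reference gene. When both arrays were set against GAPDH, 4347 probes lay past 2-fold upward and 5062 past it downward in LBH589-treated cells. Against ACTB the counts were 3518 higher and 6596 lower. Against PGK1, in contrast, 18375 probes were higher and 1189 lower, and against ODC1 1906 were higher and 15123 lower. ARHGDIA (7992 higher, 2682 lower) and H3-3A (7852 higher, 2728 lower) also gave a majority of higher probes. The share of higher probes among those past 2-fold was therefore 93.9% with PGK1, 46.2% with GAPDH and 11.2% with ODC1, against 54.5% with the 75th percentile. ACTG1, COX4I1, EIF3D and DYNLL1 gave shares between 33.5% and 36.0%, next to the 34.8% of ACTB.

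**Figure D5:**
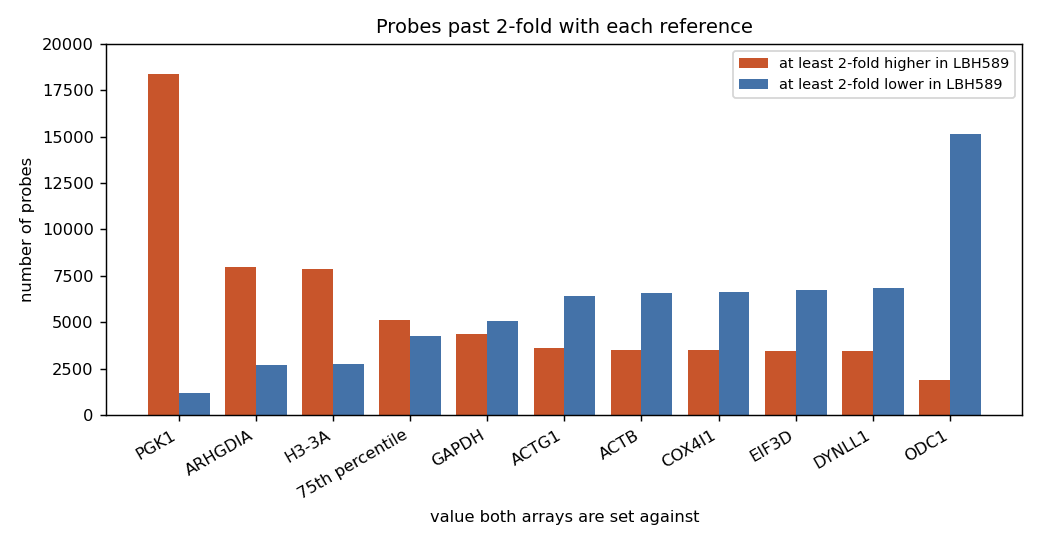
Number of probes (vertical axis) at least 2-fold higher (orange) or at least 2-fold lower (blue) in LBH589-treated cells when both arrays are set against the 75th percentile or against 1 reference gene (horizontal axis, ordered by the gene's difference). Higher probes run from 18375 with PGK1 to 1906 with ODC1, and lower probes from 1189 to 15123.

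Other genes of the same families could be named only in part. Of 79 genes in lists of glycolysis, actins and their binding proteins, cytochrome c oxidase, dynein light chains, eIF3, polyamine metabolism, H3.3 chaperones and common PCR references, 5 had a single-spot probe named in the study's lists of changed transcripts and 1 (PFN1) a repeated probe, and the remaining 73 were not analysed here. For those 5 the direction was fixed by the lists that named them, so their values are a description. ALDOC, a glycolytic aldolase, read 108.8 in DMSO-treated control cells and 1887 in LBH589-treated cells, a scaled difference of 4.92. DYNLL2, the closest relative of DYNLL1, read 699.3 and 4953, a difference of 3.62 beside 0.28 for DYNLL1. ACTA2, smooth muscle actin, read 902.7 and 37.4, a difference of -3.79 beside 0.26 for ACTB. Among PCR references, TFRC, the transferrin receptor, read 61.0 and 213.6 (2.61), and YWHAZ, a 14-3-3 protein, read 602.0 and 79.1 (-2.13). Each of the 5 rested on 1 spot per array.

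H3-3A can be set beside the H3 genes of the histone clusters, which are normally expressed during DNA replication. The study's list of raised transcripts named 10 probes of cluster H3 genes, and their differences ran from 2.11 (HIST1H3I) to 3.73 (HIST1H3G) with a median of 3.21, beside -0.29 for H3-3A. These probes too were named because they were higher.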

How the data were processed

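The 1-colour Arraystar LncRNA data were used. Per the file headers, the deposited scanner tables came from Agilent Feature Extraction 11.0.1.1 (10.7.3.1 in the submitters' processing notes) and hold processed intensity, background subtracted within the array, beside median pixel intensity and spot flags. The deposited processed table holds log2 values normalized by the authors in a way not given in the sources used here. It holds none of the repeated probes and served only for whole-array counts.

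Control spots, negative probes and spots flagged on either array were left out, and log2 signals were averaged per probe. The 75th percentile over 58921 probes was subtracted on each array. Where 1 array did not detect a probe above background, its value there was raised to the lowest signal detected on that array if it lay below it. Accessions of all 20 repeated probes matched a symbol in RefSeq tables, and 2 repeated probes and 1 family list are not reported here. With 1 array per condition no test was run. The named genes are all 10 members, the other repeated probes and fixed family lists. Members and lists were chosen with earlier results of these data known. Alternatives used quantile and normexp steps (offset 50, on median signals) in limma 3.58.1 and R 4.3.3, and other spot summaries. Calculations used Python 3.11.15 with pandas 2.3.3, and the steps were tested on simulated data. Signals are limited in precision by the number of arrays.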

Additional observations from a re-analysis of the deposited data

Results flagged for a closer look

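Single spots that stood far from the other 9 of the same gene on the same array were looked for with Dixon's ratio, the gap to the nearest spot divided by the whole range, against its critical value at 95%. Spots are not samples, and chance gives about 1 in 20 such sets. Of 20 sets, 5 passed. They were the lowest DMSO spot of ODC1 (0.5515), the lowest LBH589 spot of EIF3D (0.4804), the lowest DMSO spot of H3-3A (0.4778), the lowest LBH589 spot of COX4I1 (0.474) and the highest DMSO spot of PGK1 (0.4684). Of these 5 spots, 4 had been left out already because the scanner software marked them, and 1, that of H3-3A at a signal of 100717, was kept.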

How the results depend on the processing

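No paired analysis was possible because each condition had 1 array, and for the same reason no replicate could be left out. Of the 121 values of single genes under other settings, 77 moved by less than the SD over positions and 44 by more. The number of reference genes at least 2-fold changed was 0 as reported. It became 3, all lower, without scaling, where 16249 of 41574 probes were at least 2-fold lower. The span from PGK1 to ODC1, 1.66, was 1.33 with quantile normalization, 1.30 with normexp and quantile normalization and 1.28 with the curve on brightness, which was chosen after seeing the data, as was leaving out 2 spots of PGK1. Keeping all spots gave 1.70 and the median of the spots 1.59.

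The 5094 probes at least 2-fold higher became 1802 without scaling, 2488 with normexp on median signals and quantile normalization together, 8147 without a filter on dim probes, 7992 against ARHGDIA, 7852 against H3-3A, 18375 against PGK1 and 1906 against ODC1. The 4252 lower probes became 16249 without scaling, 2288 with normexp and quantile normalization together, 6596 against ACTB, 6396 against ACTG1, 6823 against DYNLL1, 6636 against COX4I1, 6746 against EIF3D, 2682 against ARHGDIA, 2728 against H3-3A, 1189 against PGK1 and 15123 against ODC1. Setting arrays against a gene shifts every probe by that gene's difference. For the other changes the cause was not tested. The authors' processed values gave 5987 higher and 6154 lower of 41891 probes. They hold none of the repeated probes, so the values of the 10 genes were not recomputed from them.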
